A study of Mus musculus with 4 samples.

Results

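Nos2 and Acod1 (also called Irg1) encode a pair of enzymes that macrophages make in large amounts once they sense bacteria, and the chromatin around both genes was described here through peaks of histone H4 acetylation. The members were all peaks that overlapped a fixed window of 110 kb on chromosome 11 (mm9, 78690000 to 78800000, named for Nos2) or of 90 kb on chromosome 14 (mm9, 103390000 to 103480000, named for Acod1). They numbered 116 of the 175801 peaks listed in the 4 libraries of the series, 42 of them in the Nos2 window and 74 in the Acod1 window. Members were chosen by the listed position of each peak, and the genes were picked with earlier results of these data known. Every level and difference below is therefore a description with no test.

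The libraries came from bone marrow-derived macrophages of C57BL/6 mice, grown in L929-conditioned medium and taken on day 7 of differentiation. The mutant cells were HDAC3 -/- (HDAC3 KO), either given lipopolysaccharide (LPS, found in the outer membrane of Gram-negative bacteria) at 100 ng/ml for 4 h or left untreated. The cells they were set against carried the genotype HDAC3 +/- (labelled wild type, here wt) and were given LPS in the same way or left untreated, so these cells are heterozygous and not intact at the Hdac3 gene. How the gene was deleted, in which cells of the animal, and how many mice gave the marrow are details not given in the sources used here. Each of the 4 groups had 1 library, made with an antibody to acetylated histone H4, so no difference could be set against a spread between replicates.

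Nos2 is the inducible nitric oxide synthase, which makes nitric oxide from arginine. Acod1 is the mitochondrial enzyme that makes itaconate from cis-aconitate, an intermediate of the tricarboxylic acid cycle. Both genes are near silent in resting macrophages and are induced by LPS through NF-κB and through interferon signalling with its IRF and STAT factors. Acetylated histone H4 is found at promoters and enhancers in use, and HDAC3 removes such acetyl groups as part of corepressor complexes.

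The promoter of Acod1 is shown because both windows gained listed acetylation with LPS and because NF-κB and IRF factors act on this gene. It is the 250 bases before the gene's start from RefSeq (GRCm38.p6, chr14:103046762-103047011, + strand), a build other than mm9, so it was not placed among the peaks. Acod1 was matched in the table by symbol, and Nos2 was not. Capitals mark, in order, an NF-κB-type match, an IRF-type match and a TATA box.
Acod1: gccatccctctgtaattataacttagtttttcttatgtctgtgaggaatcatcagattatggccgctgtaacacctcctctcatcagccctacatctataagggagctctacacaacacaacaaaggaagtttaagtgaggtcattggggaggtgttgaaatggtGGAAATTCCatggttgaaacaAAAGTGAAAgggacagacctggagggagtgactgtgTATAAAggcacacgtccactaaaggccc

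The letters searched were chosen with this sequence in view, and both strands were read. The NF-κB-type letters GGAANNTCC matched the same 9 bases on both strands, from 85 to 77 bases before the start, and 3.59% of the 32851 promoters in the table hold a match in the same 250 bases. The IRF-type letters AAANNGAAA matched from 64 to 56 bases before the start, against 9.37% of all promoters. The letters TATAAA matched from 28 to 23 bases before the start, against 12.4% of all promoters. The AP-1 letters TGANTCA and the STAT letters TTCNNNGAA had no match in these bases, and 6.75% and 7.02% of all promoters hold them.

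Peaks numbered 39550 to 48706 per library and covered 35.4 to 50.4 Mb, with the largest covered length in LPS-treated HDAC3 KO. Read depth was unknown. Each peak has a score from the authors' peak caller, with a lowest value near 50, and it was used only within a list, as the share of that library's peaks that were scored lower. Lists of different lengths and depths make such shares a description of each list and no measure of change. Neither the targeted Hdac3 gene nor macrophage marker genes were checked, because no gene positions on mm9 were used. For the same reason no peak is called promoter, exon or intron. Some peaks in the windows may lie at neighbouring genes.

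LPS-treated cells of both genotypes had far more acetylated ground in the Nos2 window than untreated cells. Peaks covered 18.3 kb (16.6% of the window, 13 peaks) in LPS-treated HDAC3 KO and 5.73 kb (5.21%, 7 peaks) in untreated HDAC3 KO. They covered 18.9 kb (17.2%, 15 peaks) in LPS-treated wt and 5.59 kb (5.08%, 7 peaks) in untreated wt. Both LPS-treated libraries were high and both untreated libraries low, and within a treatment the genotypes were under 1 kb apart.

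**Figure D1:**
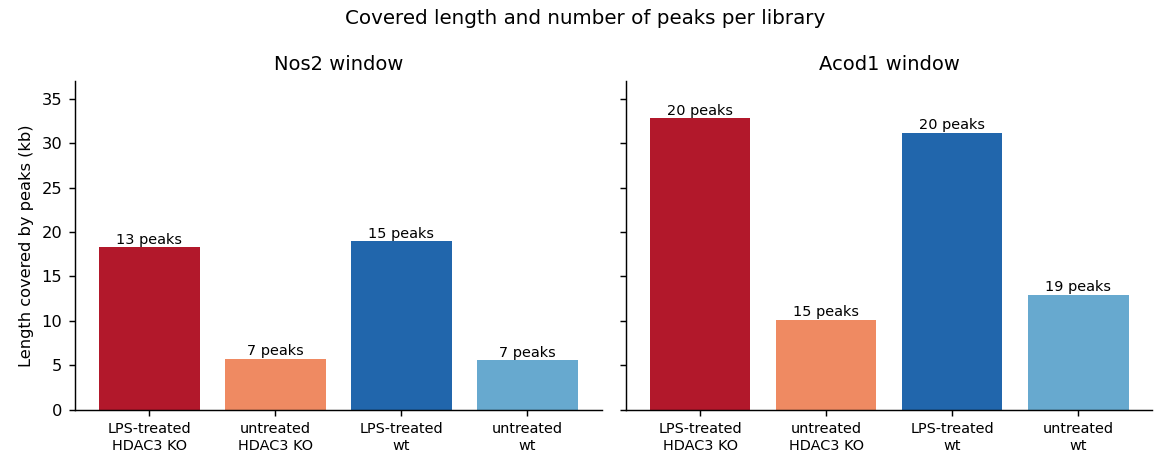
Length covered by H4 acetylation peaks (kb) in the Nos2 and Acod1 windows, 1 bar per library, with the number of peaks above it. In both windows the 2 LPS-treated libraries are higher than the 2 untreated ones, at 18.3 and 18.9 kb against 5.73 and 5.59 kb for Nos2.

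The covered ground lay in 4 clusters, taken as peaks of any library no more than 5 kb apart, a split chosen after the values were seen. The widest peaks of both LPS-treated libraries stood in a cluster of 8.79 kb at chromosome 11, 78728673 to 78737466. There, 3 peaks covered 7.53 kb in LPS-treated HDAC3 KO, and 3 peaks covered 1.97 kb in untreated HDAC3 KO. In wt, 3 peaks covered 8.50 kb with LPS and 3 peaks covered 2.14 kb without. Each library thus listed 3 peaks here, and they covered more length with LPS in both genotypes.

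The top peak of this cluster in LPS-treated HDAC3 KO ran from 78728759 to 78732475 (3717 bp, score 2396), and 98.5% of that library's peaks were scored lower. The top peak in untreated HDAC3 KO ran from 78730167 to 78731100 (934 bp, score 320), with 80.4% scored lower. The LPS peak spanned the place of the untreated one. In LPS-treated wt the top peak ran from 78731192 to 78736655 (5464 bp, score 2090.2), with 98.2% scored lower. In untreated wt it ran from 78732904 to 78734196 (1293 bp, score 304), with 81.3% scored lower, and here too the LPS peak spanned the untreated one. The top peak thus lay at the lower-numbered end of the cluster in both HDAC3 KO libraries and further along in both wt libraries. All 4 libraries had peaks at both places, and no reads were at hand to compare heights.

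With LPS the outer limits of this cluster moved outward at both ends in both genotypes. In HDAC3 KO the LPS-treated peaks began 654 bp before and ended 1928 bp after those of untreated cells. In wt they began 1522 bp before and ended 3270 bp after those of untreated cells, and the last of these was a peak of 595 bp with a score of 65.6 that no other library listed. The outward steps were shorter in HDAC3 KO at both ends, but low-scored peaks set some of these limits. At the lower end, the first untreated HDAC3 KO peak (78729413 to 78729835, score 66.7) had 20.7% of its list scored lower. The LPS-treated peaks began at 78728759 in HDAC3 KO and at 78728673 in wt.

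A second cluster lay at chromosome 11, 78688624 to 78709173, 19.5 kb before the first. Untreated cells of each genotype listed a single peak in it. In HDAC3 KO, 8 peaks covered 8.995 kb with LPS and 1 peak covered 0.996 kb without. In wt, 10 peaks covered 8.29 kb with LPS and 1 peak covered 0.858 kb without. With LPS a string of peaks thus stood in both genotypes where untreated cells listed 1. These lengths include the part of 1 region that lies outside the window's lower limit.

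The single untreated peak, at 78700560 to 78701555 in HDAC3 KO (score 107) and 78700687 to 78701544 in wt (score 152), overlapped the highest-scored LPS peak of the cluster in HDAC3 KO. That LPS peak ran from 78699656 to 78701758 (score 1144). In LPS-treated wt the highest-scored peak, from 78699022 to 78700572 (score 980.3), ended just before the place of the untreated wt peak, which overlapped the next one along (1090 bp, score 286). Peaks at 78688624 to 78691334, 78696749 to 78697531, 78701888 to 78702775 and 78703174 to 78704079 were listed in both LPS-treated libraries and in neither untreated one. The first of these regions crosses the window's lower limit, and its top scores were 887 in LPS-treated HDAC3 KO and 730.2 in LPS-treated wt. LPS-treated HDAC3 KO alone listed peaks at 78691780 to 78692444 (score 68.6) and 78708627 to 78709173 (score 50.8). The peak at 78708627 set the upper limit of the cluster, with only 1.20% of its list scored lower. LPS-treated wt alone listed a peak at 78697961 to 78698416 (score 64.65).

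At the far end of the window, a cluster at chromosome 11, 78795701 to 78799302, covered nearly the same ground in every library. The covered length was 3.16 kb in HDAC3 KO with LPS and 2.77 kb without, and 2.92 kb in wt with LPS and 2.59 kb without. The top peak had 96.9% of peaks scored lower in LPS-treated HDAC3 KO (score 1598) and 64.3% in untreated HDAC3 KO (183). In wt it had 98.1% scored lower with LPS (2046) and 58.3% without (145). In untreated wt this ground was split into 3 peaks, and in LPS-treated wt it was a single peak of 2916 bp. In HDAC3 KO it was split into 3 peaks without LPS and into 2 with LPS, of 2426 and 733 bp. The widest peak of each untreated library in the window stood here, with 1711 bp in HDAC3 KO and 1317 bp in wt.

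A lone peak of 591 bp at 78764381 to 78764971 was listed in LPS-treated wt alone, with a score of 84.8, below the median of its list. From 78737466 to 78795701, a stretch broken only by this peak, the Nos2 window held no other peak in any library.

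**Figure D2:**
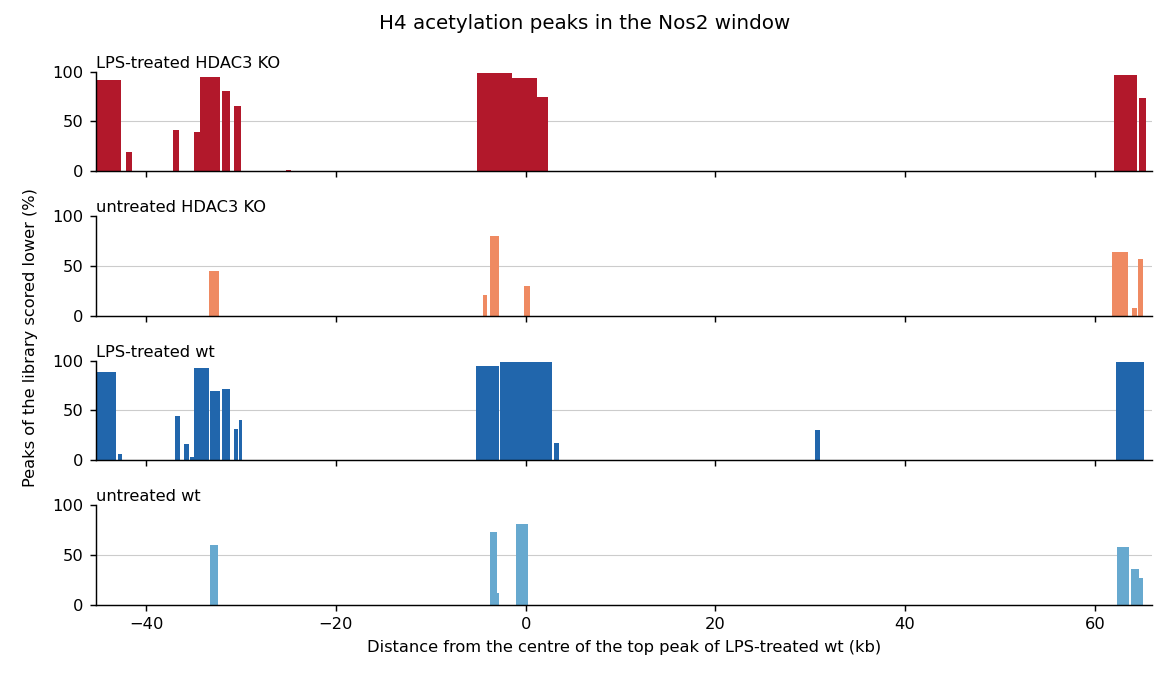
Peaks in the Nos2 window in the 4 libraries. The x axis is the distance (kb) from the centre of the highest-scored peak of LPS-treated wt, a bar's width is the peak's width, and its height is the percentage of that library's peaks with a lower score. The LPS-treated rows show a filled block around 0 and a group of peaks to the left where the untreated rows show 1 peak each.

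The Acod1 window was the more densely covered of the pair. Peaks covered 32.8 kb (36.4% of the window, 20 peaks) in LPS-treated HDAC3 KO and 10.1 kb (11.2%, 15 peaks) in untreated HDAC3 KO. In wt they covered 31.2 kb (34.6%, 20 peaks) with LPS and 12.96 kb (14.4%, 19 peaks) without. As at Nos2, both LPS-treated libraries stood above both untreated ones. In wt the number of peaks was nearly the same under both treatments, and the median width was 1202 bp with LPS and 584 bp without. Of the 20 LPS-treated wt peaks, 11 overlapped no peak of untreated wt (31.7% over the whole list).

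A cluster of 43.2 kb at chromosome 14, 103405857 to 103449089, held most of this ground. It held 17 merged regions, that is, stretches where peaks of the lists overlap by at least 1 bp. Peaks in the cluster covered 31.2 kb in LPS-treated HDAC3 KO (19 peaks) and 5.10 kb in untreated HDAC3 KO (9 peaks). They covered 29.6 kb in LPS-treated wt (19 peaks) and 10.8 kb in untreated wt (16 peaks). The outer limits of the cluster moved by under 1 kb with LPS in either genotype, so the added ground lay between peaks that untreated cells already had.

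The region at 103432857 to 103435184 had the highest score of the window in both wt libraries and a tied highest score in LPS-treated HDAC3 KO. Its top peak had 99.1% of peaks scored lower in LPS-treated HDAC3 KO (2234 bp, score 3100, a value tied over 370 peaks of that list). In untreated HDAC3 KO the top peak there was 689 bp wide with a score of 522 (90.9% scored lower). In LPS-treated wt it was 2152 bp wide with a score of 2536 (98.7%), and in untreated wt 1589 bp wide with a score of 590 (94.1%). This region was thus among the top 10% of every list, untreated cells included.

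A second region with the tied score of 3100 in LPS-treated HDAC3 KO lay at 103411932 to 103417447. There it was a single peak of 5516 bp, the widest of the window in any library. Untreated HDAC3 KO listed 2 peaks covering 1.04 kb, with a top score of 223. LPS-treated wt listed 3 peaks covering 4.54 kb with a top score of 2381, and untreated wt 4 peaks covering 2.21 kb with a top score of 142.

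The widest merged region of the window was 103442145 to 103449089 (6945 bp). It was covered over 6.51 kb in LPS-treated HDAC3 KO (top score 2643, 98.8% scored lower) and 1.29 kb in untreated HDAC3 KO (top score 53.3, 4.87% scored lower). In wt it was covered over 6.76 kb with LPS (top score 1996, 98.0% scored lower) and 3.34 kb without (top score 447, 89.8% scored lower). In LPS-treated cells the genotypes were alike in length here. In untreated cells the HDAC3 KO library had a pair of peaks near the lowest score listed, where the wt library had a peak of 2116 bp close to its top 10%.

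Regions at 103407156 to 103409154 and 103435623 to 103439926 had the same order in untreated cells. The first was covered over 1.999 kb in LPS-treated HDAC3 KO and 0.371 kb in untreated HDAC3 KO, and over 1.72 kb in LPS-treated wt and 0.942 kb in untreated wt. The second was covered over 3.43 kb and 0.381 kb in HDAC3 KO with and without LPS, and over 3.69 kb and 1.41 kb in wt with and without LPS. At 103410264 to 103411791 and 103430013 to 103432716 untreated HDAC3 KO listed no peak at all, where the other 3 libraries did. In untreated wt these held peaks of 154 bp (score 61.4) and 811 bp (score 162). Regions that only untreated HDAC3 KO lacked numbered 2 of 23 at Acod1 and 0 of 12 at Nos2. Over the series such regions were 3.45% of all merged regions.

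Between 103418351 and 103429934, LPS-treated cells of both genotypes shared 5 regions that neither untreated library listed. Their top scores were 58.3 to 402 in LPS-treated HDAC3 KO and 119 to 557 in LPS-treated wt. The region at 103418351 to 103420558 differed most between the genotypes, with 0.751 kb covered (top score 80.9) in LPS-treated HDAC3 KO and 2.10 kb (top score 557) in LPS-treated wt. Another 3 regions, from 103440020 to 103442065, were listed in LPS-treated HDAC3 KO alone, with scores of 86.2 to 193. A peak of 407 bp at 103423703 to 103424109 was listed in LPS-treated wt alone (score 73.3).

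**Figure D3:**
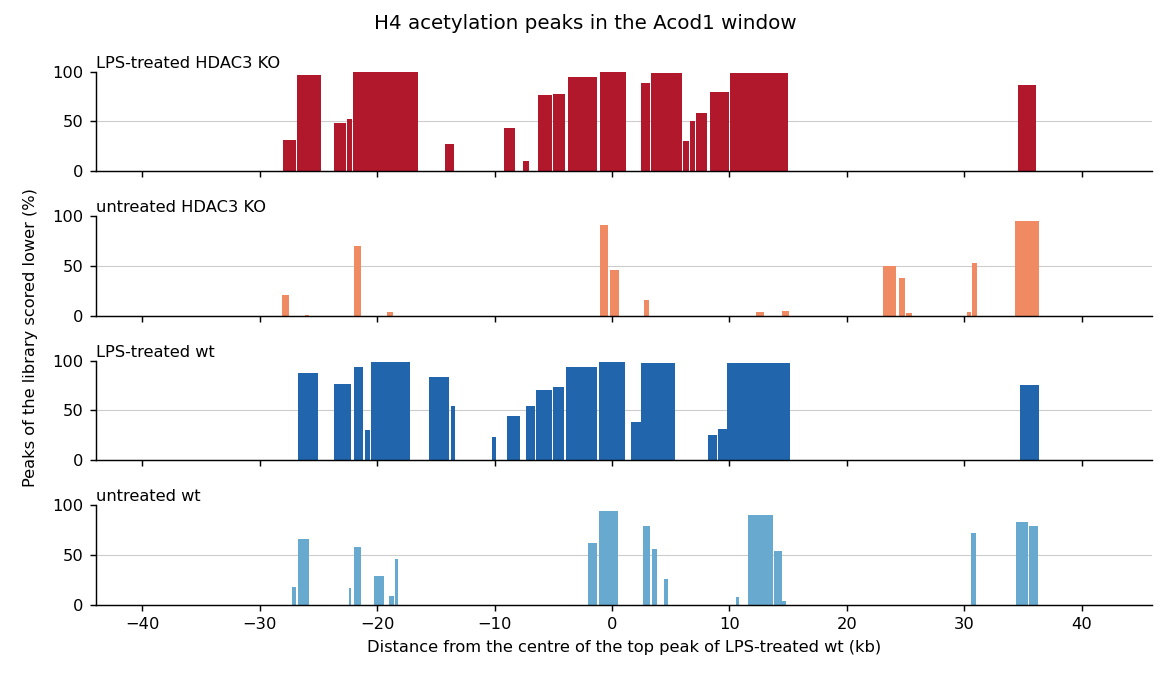
Peaks in the Acod1 window in the 4 libraries. The x axis is the distance (kb) from the centre of the highest-scored peak of LPS-treated wt, a bar's width is the peak's width, and its height is the percentage of that library's peaks with a lower score. Over the 43.2-kb cluster, peaks cover 31.2 kb in the LPS-treated HDAC3 KO row and 29.6 kb in the LPS-treated wt row. The untreated HDAC3 KO row has peaks near 24 kb that no other row has.

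A second cluster of the Acod1 window, at 103457057 to 103470330, went the other way. It was covered over 1.56 kb by 1 peak in LPS-treated HDAC3 KO and over 5.00 kb by 6 peaks in untreated HDAC3 KO. In wt it was covered over 1.58 kb by 1 peak with LPS and over 2.19 kb by 3 peaks without. Both genotypes thus had less listed ground here with LPS, with differences of -3.44 kb in HDAC3 KO and -0.617 kb in wt.

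The region at 103468261 to 103470330 was listed in all 4 libraries. Its top score in HDAC3 KO was 649 with LPS (86.5% of peaks scored lower) and 680 without (94.7%). In wt its top score was 369 with LPS (75.7%) and 333 without (83.5%). The share scored lower was thus smaller with LPS in both genotypes, although the wt score itself was not. This region was the highest-scored of the window in untreated HDAC3 KO. A small region at 103464573 to 103465059 was listed in both untreated libraries (score 130 in HDAC3 KO and 217 in wt) and in neither LPS-treated one.

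Untreated HDAC3 KO alone listed 4 regions in this cluster, of which 3 lay side by side from 103457057 to 103459537. Their scores were 121, 90.6 and 51.9, and the fourth, at 103464229 to 103464544, had 52.8. All 4 scores were below the median of that list, 121.9. Regions listed in untreated HDAC3 KO alone made up 8.27% of the 62522 merged regions of the series, and 4 of 23 in the Acod1 window and 0 of 12 in the Nos2 window.

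**Figure D4:**
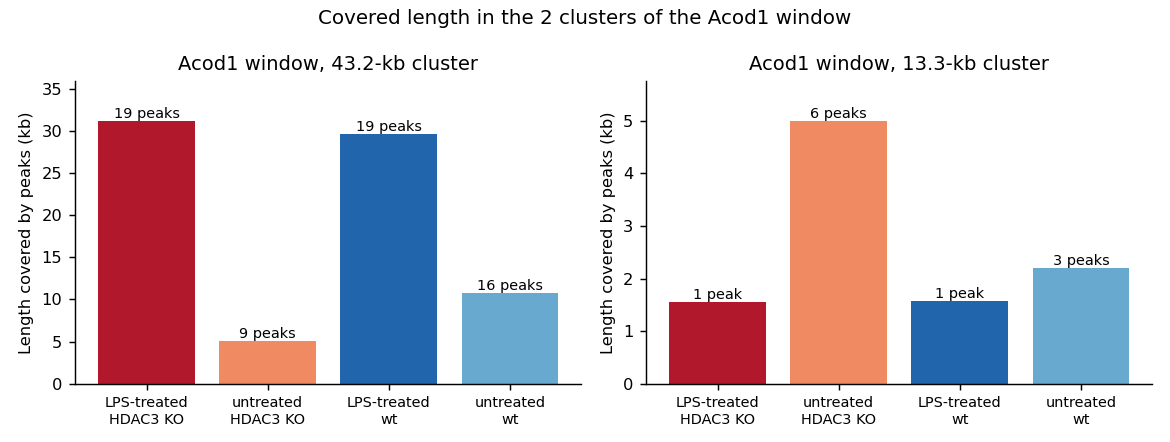
Length covered by peaks (kb) in the 2 clusters of the Acod1 window, 1 bar per library with the number of peaks above it (the 2 panels have different scales). Untreated HDAC3 KO is the lowest bar of the 43.2-kb cluster, at 5.10 kb, and the highest of the smaller one, at 5.00 kb.

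For the LPS comparison in HDAC3 KO, the covered length plus 1 kb was 2.87-fold higher in LPS-treated than in untreated cells at Nos2 and 3.04-fold higher at Acod1. Among 110-kb windows along the genome 14.7% were at least 2-fold higher, and among 90-kb windows 14.3% were. The median over all windows was 1.13-fold for the first length and 1.12-fold for the second. In wt the same ratio was 3.03-fold at Nos2 and 2.30-fold at Acod1, where 7.49% of 110-kb windows and 7.30% of 90-kb windows were at least 2-fold higher and the median was 1-fold for both. Both loci were past 2-fold in both genotypes. The HDAC3 KO ratio at Acod1 was 6.09-fold with peaks at or above the median score of each list and 5.90-fold with the 20000 highest-scored peaks of each. After division by total covered length, the HDAC3 KO ratio was 2.23-fold at Acod1 and 2.13-fold at Nos2. The LPS-treated HDAC3 KO library covered 1.38 times as much of the genome as the untreated one.

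Most of the ground acetylated with LPS was not listed without it. In HDAC3 KO, 70.6% of the length covered with LPS at Nos2 and 80.4% at Acod1 lay outside the peaks of untreated cells, against 46.5% over the whole list. In wt the share was 70.5% at Nos2 and 62.2% at Acod1, against 40.0% over the whole list. Both loci were above the whole-list share in both genotypes. In the other direction, 6.19% of the untreated length at Nos2 and 36.3% at Acod1 was not listed with LPS in HDAC3 KO, against 26.0% over the whole list. In wt it was 0% at Nos2 and 9.08% at Acod1, against 36.6% over the whole list.

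Counted as peaks, 21 of 33 members in LPS-treated HDAC3 KO had no partner in untreated HDAC3 KO (39.9% over the whole list), and 5 of 22 had none in the other direction (25.0%). In wt, 22 of 35 LPS-treated members had no partner in untreated cells (31.7%), and 2 of 26 untreated members had none in LPS-treated cells (35.6%). At Nos2 every untreated peak of either genotype overlapped an LPS peak of the same genotype. Regions listed in both LPS-treated libraries alone numbered 4 of 12 at Nos2 and 5 of 23 at Acod1, against 6.56% of the merged regions of the series. Regions listed in all 4 libraries numbered 3 of 12 and 6 of 23, against 28.5%, a share near that of the series. LPS-treated HDAC3 KO alone listed 2 of 12 and 3 of 23 (14.5% in the series), and LPS-treated wt alone 3 of 12 and 1 of 23 (7.58%). The region of both untreated libraries alone was 1 of 23 at Acod1, with 0 of 12 at Nos2 (4.86%).

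**Figure D5:**
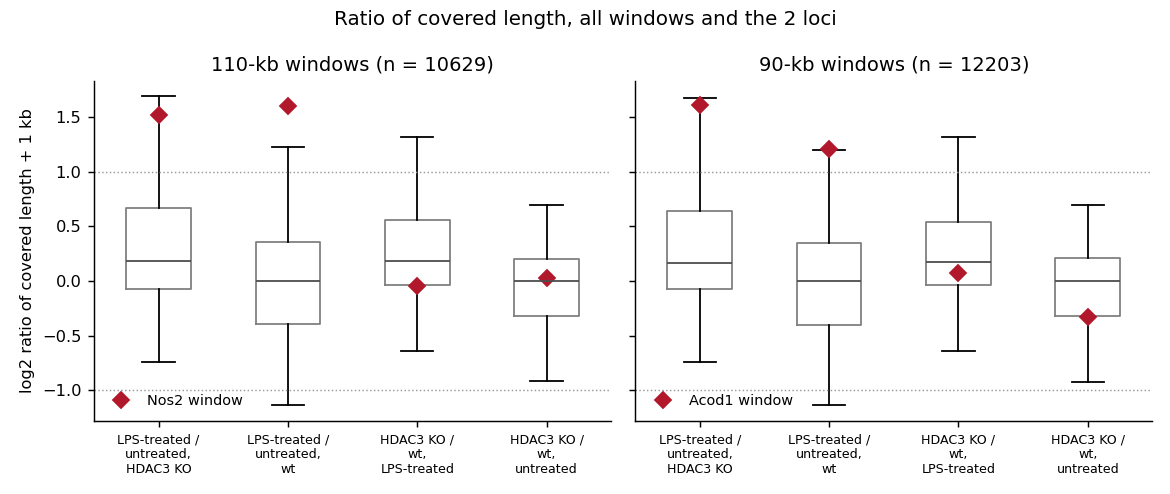
The log2 ratio of covered length plus 1 kb in the 4 comparisons, for all windows of the same length with a peak in any library (boxes with median and quartiles, whiskers at the 5th and 95th percentiles) and for the 2 loci (diamonds). Dotted lines mark 2-fold. The diamonds of both LPS comparisons lie above the upper dotted line, and those of the genotype comparisons lie between the dotted lines.

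In the genotype comparison of untreated cells, the covered length at Nos2 was 5.73 kb in HDAC3 KO and 5.59 kb in wt. The peaks shared 4.28 kb, which was 60.9% of the ground covered in either, against 52.5% over the whole lists. At Acod1 the covered length was 10.1 kb in HDAC3 KO and 12.96 kb in wt, and the shared ground was 36.6%. Neither locus was past 2-fold. Of 110-kb windows, 1.90% were at least 2-fold higher and 3.92% at least 2-fold lower in HDAC3 KO, and of 90-kb windows 1.69% and 3.91%. Of the untreated HDAC3 KO members, 6 of 22 had no partner in untreated wt (24.6% over the whole list), and 8 of 26 had none in the other direction (29.3%). By locus these were 1 of 7 and 0 of 7 at Nos2, and 5 of 15 and 8 of 19 at Acod1.

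The net Acod1 difference of -2.85 kb summed opposite differences in the 2 clusters. HDAC3 KO minus wt was -5.66 kb in the 43.2-kb cluster (5.10 kb against 10.8 kb), and 2.81 kb in the smaller one (5.00 kb against 2.19 kb). With 1 kb added to each length the ratios were 0.519 and 1.88, so neither cluster was past 2-fold. The 43.2-kb cluster was past 2-fold lower with peaks at or above the median score and with the 20000 highest-scored peaks. It was also past 2-fold lower with peaks joined over 500 bp, and not after division by total covered length. These settings were chosen after seeing the data. Of the 15 untreated HDAC3 KO peaks in the window, 11 were below their list's median score, as were 8 of the 19 untreated wt peaks. With peaks at or above the median score the Acod1 difference was -6.24 kb, past 2-fold lower, and the surplus in the smaller cluster came to 0.256 kb.

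In LPS-treated cells the genotypes differed by little at either locus. At Nos2 peaks covered 18.3 kb in HDAC3 KO and 18.9 kb in wt, and at Acod1 32.8 kb in HDAC3 KO and 31.2 kb in wt. Neither was past 2-fold, where 10.1% of 110-kb windows were higher and 1.85% lower in HDAC3 KO by this much, and 9.85% and 1.79% of 90-kb windows. The shared ground was 75.0% at Nos2 and 70.5% at Acod1, against 53.0% over the whole lists. Of the LPS-treated HDAC3 KO members, 6 of 33 had no partner in LPS-treated wt (35.3% over the whole list), and 4 of 35 had none in the other direction (19.5%). LPS-treated HDAC3 KO covered 1.35 times as much of the genome as LPS-treated wt. After division by total covered length, HDAC3 KO minus wt was -5.71 kb at Nos2 and -7.29 kb at Acod1, with neither past 2-fold.

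Compared along the genome, Acod1 was among the most covered windows of its length with LPS. Only 46 of 12203 windows of 90 kb had as much covered length in LPS-treated HDAC3 KO, and 743 in untreated HDAC3 KO. In LPS-treated wt 19 windows did, and in untreated wt 261. At Nos2, 453 of 10629 windows of 110 kb had as much in HDAC3 KO with LPS and 2000 without, and in wt 168 with LPS and 1979 without.

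The window limits cut through 1 peak in each LPS-treated library, at the lower end of the Nos2 window. The nearest peaks outside that end lay 1.45 kb away in LPS-treated HDAC3 KO (score 179) and 1.52 kb away in LPS-treated wt (score 118). In untreated cells they lay 46.0 kb away in HDAC3 KO and 49.0 kb away in wt. The listed LPS ground thus ran past this limit. At the other limits the nearest outside peak lay 30.3 to 35.8 kb above the Nos2 window, and 6.75 to 7.39 kb below and 17.6 to 17.8 kb above the Acod1 window, in all 4 libraries.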

How the data were processed

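Acetylated histone H4 was mapped by chromatin immunoprecipitation and sequencing in 4 libraries, 1 per group. Bowtie and the build mm9 are named in the submitters' processing notes. Per the file headers, peaks were called with MACS for each library against an input. Versions, settings and the matching of inputs are not given in the sources used here. The deposited lists give a start, an end and a score per peak, with no reads, so depth is unknown.

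Covered length was the sum of peak lengths clipped to the window. Regions were merged over lists at an overlap of at least 1 bp. Windows of the same length were laid end to end along each chromosome and kept where any list had a peak. A ratio had 1000 bp added to both lengths and was called at 2-fold. Regions named in full were those with the highest score and the widest. Those of 1 treatment or genotype were named singly or given as ranges. The members and lists were chosen with earlier results of these data known. Lists of related metabolic and marker genes, planned for an mm9 annotation, were not analysed here. The code recovered 35 of 35 known quantities from 4000 simulated regions. Analyses ran in Python 3.11.15 with pandas 2.3.3 and numpy 2.4.6, and plots in matplotlib 3.10.9.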

Additional observations from a re-analysis of the deposited data

Results flagged for a closer look

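The difference in covered length between HDAC3 KO and wt had opposite signs in LPS-treated and untreated cells in both windows and in both clusters of the Acod1 window. With 1 library per group none of these was tested.

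At Nos2 the difference was -0.633 kb with LPS and 0.146 kb without, so that the LPS change was 12.6 kb in HDAC3 KO and 13.4 kb in wt, -0.779 kb apart. Both genotype differences there changed sign under some settings. At Acod1 the difference was 1.62 kb with LPS and -2.85 kb without, and the LPS change was 22.7 kb in HDAC3 KO and 18.2 kb in wt, 4.47 kb apart. The difference with LPS was -7.29 kb after division by total covered length and -0.008 kb with the 20000 highest-scored peaks, so under these settings it had the same sign as the one without LPS. On the log2 scale with 1 kb added, the LPS change at Acod1 was 0.40 higher in HDAC3 KO than in wt. The median of this value over 90-kb windows was 0.26, with 5th and 95th percentiles of -0.68 and 1.47. In the 43.2-kb cluster of the Acod1 window the difference was 1.64 kb with LPS and -5.66 kb without, 7.30 kb apart. In the smaller cluster it was -0.018 kb with LPS and 2.81 kb without, -2.83 kb apart. The value with LPS came from 1 peak of 1559 bp in HDAC3 KO and 1 of 1577 bp in wt. The cluster differences with LPS were not repeated under other settings, so their signs were not checked. Both clusters were set after the values were seen.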

How the results depend on the processing

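The 4 LPS differences in kb at Nos2 and Acod1 kept their direction and stayed past 2-fold under all 24 planned changes of setting, and 22 of these kb values were within 1.5 times the reported one. The other 2 came from dividing by total covered length in HDAC3 KO, with 8.21 kb at Nos2 and 14.9 kb at Acod1. As ratios, 22 were also within 1.5 times, and the HDAC3 KO ratio at Acod1, 3.04-fold as reported, was 6.09-fold with peaks at or above the median score and 5.90-fold with the 20000 highest-scored. Of the 24 values of the genotype comparisons, 15 moved by more than this and 1 was past 2-fold. For HDAC3 KO minus wt in untreated cells at Nos2, these were -1.04 kb with peaks at or above the median score, 0.277 kb with the 20000 highest-scored peaks, 0.703 kb with peaks joined over 500 bp, -0.023 kb after division by total length and -0.034 kb in a window shortened by 10 kb at both ends. At Acod1 they were -6.24 kb with peaks at or above the median score and -4.49 kb with the 20000 highest-scored peaks. In LPS-treated cells at Nos2 they were 0.65 kb both with peaks at or above the median score and with the 20000 highest-scored, -1.20 kb with peaks joined, -5.71 kb after division and -1.16 kb with peaks wholly inside the window. At Acod1 they were 0.869 kb, -0.008 kb (the 20000 highest-scored) and -7.29 kb (division). Settings for the Acod1 clusters in untreated cells were chosen after seeing the data. The 43.2-kb cluster was not past 2-fold as reported (-5.66 kb) or after division by total covered length (-6.55 kb). It gave -6.50 kb with peaks at or above the median score, -4.75 kb with the 20000 highest-scored and -6.88 kb with peaks joined, each past 2-fold. The smaller cluster gave 0.256 kb with either stricter choice of peaks. The cause of these shifts was not tested.

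Numbers of merged regions moved by over 1.5 times in these cases. With peaks at or above the median score, Nos2 had 6 regions, 2 of them in both LPS-treated libraries alone, and Acod1 had 3 in all 4 libraries and 3 in both LPS-treated alone. With the 20000 highest-scored peaks Nos2 had 6 regions, 1 in all 4 and 2 in both LPS-treated alone, and Acod1 had 15 regions, 2 and 2. Merging over 500 bp left 6 regions at Nos2 and 8 at Acod1, with 1 in both LPS-treated alone at each. Where a library had to cover at least 50% of a region, 1 region at Nos2 and 2 at Acod1 were in all 4, and 10 at Acod1 were in both LPS-treated alone. The shortened Nos2 window held 7 regions, 2 of them in both LPS-treated alone. Shares over all merged regions of the series were counted only for the reported setting. The numbers under the other settings therefore cannot be set against the series.

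The number of windows at least 2-fold higher moved with its settings. In the order LPS in wt, LPS in HDAC3 KO, genotype untreated and genotype with LPS, a 1.5-fold limit gave 1662, 3024, 748 and 2475 windows of 110 kb and 1927, 3344, 881 and 2769 of 90 kb. With 2000 bp added the numbers were 442, 1003, 71 and 574, and 477, 1095, 81 and 623. With 500 bp added, those that moved by over 1.5 times were 390 windows of 110 kb for genotype untreated, and 1349, 463 and 1833 of 90 kb for LPS in wt, genotype untreated and genotype with LPS. After division by total length, LPS in HDAC3 KO gave 969 windows of 110 kb and 1072 of 90 kb, and genotype with LPS gave 570 and 650. With peaks at or above the median score, genotype untreated gave 319 windows of 90 kb.

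No paired analysis was possible because each group had 1 library with no replicate number. Leaving out a library would remove a group. Read depth is unknown, and a peak missing from a list is not shown to be absent.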
